A study of Homo sapiens with 6 samples.

Results

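Polyamine synthesis and turnover genes were read in RNA sequencing counts of human neuroblastoma cell lines. The set holds 10 genes, found by their symbols among 25370 rows of the count table, and all 10 had a row. They are ODC1, AMD1, SRM and SMS (synthesis), OAZ1 and OAZ2 (antizymes), AZIN1 (an antizyme inhibitor), and SAT1, PAOX and SMOX (catabolism). The study asked how LMO1, a LIM-only transcriptional co-regulator, acts beside the oncogene MYCN. Both lines, BE2C and Kelly, carry an amplified MYCN. The 6 libraries were BE2C with forced LMO1 (2 libraries), unmodified Kelly (1 library), unmodified parental BE2C (1 library) and BE2C carrying a vector (2 libraries). No label gives the promoter that drives LMO1, the number of clones or the time in culture.

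Putrescine, spermidine and spermine are small cations that bind nucleic acids and are needed for cell growth. ODC1 makes putrescine from ornithine, and AMD1 makes the aminopropyl donor that SRM and SMS use to build spermidine and spermine. Antizymes bind ODC1 protein and send it to the proteasome, and AZIN1 binds antizyme in its place. SAT1 acetylates spermidine and spermine, PAOX oxidises the acetylated forms, and SMOX oxidises spermine directly. ODC1 is a known transcriptional target of MYC proteins, and inhibition of its enzyme has been studied as a treatment of neuroblastoma.

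RefSeq start windows (GRCh38.p14, 250 bases before to 50 bases after a start) were found for 7 of the 10 genes, in 10 windows. AZIN1, PAOX and SMOX had none in that table. Both strands of each window were searched for CACGTG, the E-box bound by MYC and MAX. A search for TATAA looked for a TATA-like element. The other motif was AGATAA, bound by GATA factors, and none of the 3 motifs contains another. The windows of ODC1, SRM and SMS are shown because these synthesis genes carry the clearest differences or an E-box, and the motifs found are in capitals. The ODC1 windows lie at chr2:10448278-10448577 and chr2:10447963-10448262, that of SRM at chr1:11059969-11060268 (all on the minus strand), and that of SMS at chrX:21940459-21940758 on the plus strand.
ODC1 upstream start: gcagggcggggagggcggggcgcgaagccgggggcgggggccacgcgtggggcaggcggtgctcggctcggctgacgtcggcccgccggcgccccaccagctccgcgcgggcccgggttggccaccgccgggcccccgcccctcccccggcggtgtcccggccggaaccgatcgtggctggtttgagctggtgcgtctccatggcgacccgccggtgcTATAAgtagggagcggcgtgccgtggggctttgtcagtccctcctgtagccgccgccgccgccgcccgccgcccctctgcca
ODC1 downstream start: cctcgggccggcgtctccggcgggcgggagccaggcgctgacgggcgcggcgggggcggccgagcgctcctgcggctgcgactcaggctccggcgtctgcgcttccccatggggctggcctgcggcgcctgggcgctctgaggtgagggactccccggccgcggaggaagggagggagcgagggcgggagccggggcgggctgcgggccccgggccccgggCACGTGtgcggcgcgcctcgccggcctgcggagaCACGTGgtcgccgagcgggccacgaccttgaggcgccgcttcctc
SRM: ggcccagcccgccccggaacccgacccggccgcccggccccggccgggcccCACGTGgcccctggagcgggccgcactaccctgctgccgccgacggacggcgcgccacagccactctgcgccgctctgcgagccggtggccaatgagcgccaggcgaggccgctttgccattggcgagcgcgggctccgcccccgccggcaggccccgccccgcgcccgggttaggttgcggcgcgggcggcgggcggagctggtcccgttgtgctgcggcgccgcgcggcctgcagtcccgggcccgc
SMS: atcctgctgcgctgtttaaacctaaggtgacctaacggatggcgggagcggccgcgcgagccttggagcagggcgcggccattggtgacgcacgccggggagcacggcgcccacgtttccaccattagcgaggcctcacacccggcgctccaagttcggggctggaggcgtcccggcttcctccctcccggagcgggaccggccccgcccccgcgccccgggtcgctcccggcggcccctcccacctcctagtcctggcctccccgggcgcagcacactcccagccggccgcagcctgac

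The downstream ODC1 window held 2 CACGTG motifs, beginning at -29 and at 6 from that start. At least 2 such motifs stood in 0.664% of the 35116 windows of all genes in the table. SRM held 1 CACGTG, beginning at -199, and at least 1 stood in 7.26% of windows. A TATAA began at -32 from the upstream ODC1 start, at -29 in an AMD1 window and at 7 in that of OAZ1, and 20.4% of all windows held at least 1. A further AMD1 window, shifted by 1 base, holds the same TATAA, and the other AMD1 window holds none. AGATAA stood in none of the 10 windows and in 10.3% of all windows. A motif match describes the letters in a window only.

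OAZ1 protein is made only when ribosomes slip past a stop codon, a step that polyamines stimulate. The site is printed because OAZ1 carried the highest level per length of the set in every library, and RNA counts do not measure this step. In the GENCODE v29 annotation (GRCh38), an OAZ1 transcript runs through it at chr19:2271413-2271473 on the plus strand. Capitals mark the stop codon, whose first base, at 2271443, is skipped in the annotated reading frame after 68 codons.
OAZ1 frameshift site: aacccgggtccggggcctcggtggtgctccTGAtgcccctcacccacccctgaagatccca

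Total counts ran from 18737591 to 22426978 in LMO1 libraries, 59512958 in Kelly, 48663459 in parental and 21946052 to 25070942 in vector libraries. LMO1 itself had 6.55 and 5.85 CPM (counts scaled to library size by TMM) in LMO1 libraries, 94.1 CPM in Kelly, 1.93 CPM in parental and 1.05 and 0.926 CPM in vector libraries. Its log2 fold change, LMO1 over vector, was 2.65 (SE 0.270, edgeR adjusted p = 3.46e-11). All 14 markers of sympathetic neuroblastoma had at least 1 CPM in every library, though their levels differed between libraries. TH had 5.24 and 6.21 CPM in LMO1, 405 in Kelly, 3.08 in parental and 1.70 and 1.53 in vector libraries. Of 6 blood markers only CD68 reached 1 CPM anywhere, and CD3E and HBB were at 0 counts in all 6 libraries. The 7 fibroblast and endothelial markers, mainly DCN, LUM and COL1A1, summed to 58.9 and 59.8 CPM in LMO1, 63.7 in Kelly, 131 in parental and 31.0 and 34.7 in vector libraries. PECAM1 had at most 1 count in any library, and the part of these genes in the results below was not tested. Epithelial markers summed to 3.68 to 7.70 CPM, with KRT14 at 0 counts throughout, and hepatocyte markers to at most 0.396 CPM. The parental and Kelly libraries stood apart in content. Replication-dependent histone genes took 0.0138% of counts in Kelly and 0.0423% in parental, against 1.23% in both LMO1 libraries and 1.01% and 1.02% in vector libraries. Small non-coding RNAs took 0.0704% in Kelly, 0.0926% in parental and 3.53% to 3.92% in the other 4. The labels name the same kit for all 6.

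The 10 genes together took 0.201% and 0.204% of counts in LMO1, 0.183% in Kelly, 0.165% in parental and 0.191% in each vector library. Levels between genes were compared as CPM per kb of the principal GENCODE transcript. OAZ1 was highest in each library, at 548 and 560.4 CPM per kb in LMO1, 355 in Kelly, 369 in parental and 556 and 544 in vector libraries. ODC1 came next, at 154 and 160.4 CPM per kb in LMO1, 245 in Kelly, 129.8 in parental and 173 and 174 in vector libraries. In LMO1 and vector libraries the order went on with AZIN1, SMS, AMD1, SRM, OAZ2, SAT1, SMOX and PAOX, and no neighbours in it overlapped within a group. The order rests on 1 transcript length per gene, and other lengths were not tried. By CPM alone it differed. AMD1 then stood above SMS, with means of 186 and 131 in LMO1 and 178 and 108 in vector libraries. AZIN1 (mean 538) then stood above ODC1 (417) in LMO1 libraries. In Kelly SMS, at 108 CPM per kb, stood above AZIN1, at 55.2. In parental AMD1, at 55.6 CPM per kb, stood above SMS, at 52.5. The oxidases and SAT1 were the lowest of the set everywhere, and PAOX stayed at 0.698 to 1.07 CPM per kb.

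**Figure D1:**
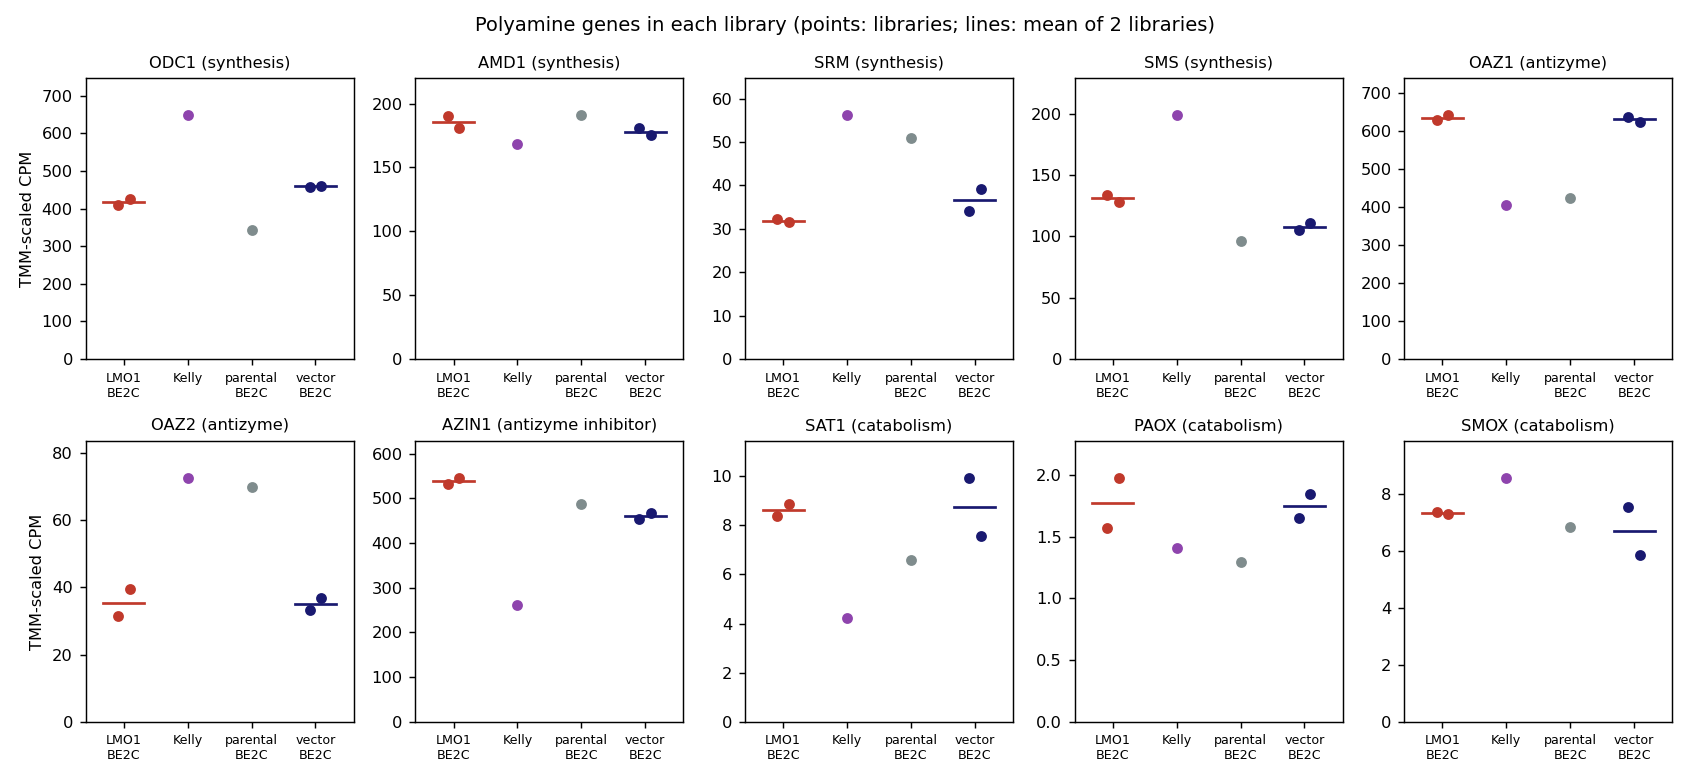
TMM-scaled CPM (vertical axis, from 0) of the 10 polyamine genes in LMO1 BE2C, Kelly, parental BE2C and vector BE2C, with 1 point per library and a line at the mean of 2 libraries. ODC1 is at 409 and 425 CPM in LMO1, 649 in Kelly, 344 in parental and 458 and 461 CPM in vector libraries.

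Forced LMO1 went with small and mixed differences in this pathway. SMS (spermine synthase) and AZIN1 were higher in LMO1 than in vector cells, and ODC1 was lower, while the other 7 genes did not pass the test. That is 3 of 10 genes tested, against 31.0% of all 15480 genes tested, so the share is close to the background. By direction, 2 of 10 were higher (15.9% of all genes) and 1 of 10 lower (15.1%). The median log2 fold change of the 10 was 0.03, and that of all genes tested was 0.00. Bulk RNA cannot tell fewer cells that express a gene from less RNA per cell.

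ODC1 had 409 and 425 CPM in LMO1 libraries, against 458 and 461 CPM in vector libraries. Both LMO1 libraries lay below both vector libraries, and the single parental library, at 344 CPM, lay below them all. ODC1 fell by 0.13 on the log2 scale (SE 0.0295, 95% interval -0.19 to -0.07, edgeR adjusted p = 0.000434), which is a fold of 0.913. Of the 4797 genes called, 5.84% had a smaller change than ODC1.

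SMS, which turns spermidine into spermine, had 134 and 128 CPM in LMO1 libraries, against 105 and 111 CPM in vector libraries, with no overlap. It rose by 0.28 (SE 0.0455, 95% interval 0.19 to 0.38, edgeR adjusted p = 1.98e-06), a fold of 1.22. SRM, the spermidine synthase one step before, had 32.3 and 31.5 CPM in LMO1 libraries, against 34.2 and 39.2 CPM in vector libraries. Its libraries did not overlap either, yet its log2 fold change of -0.20 (SE 0.0811, 95% interval -0.36 to -0.04) missed the threshold (edgeR adjusted p = 0.0541). SRM was called lower without vector replicate 1 (log2 -0.29, edgeR adjusted p = 0.0168) and with every gene of at least 1 count kept (0.0453). Without vector replicate 2 its log2 fold change was -0.10 (edgeR adjusted p = 0.545), and over all alternatives its adjusted p ran from 0.0168 to 0.641. AMD1, which makes the aminopropyl donor, had 190.1 and 181 CPM in LMO1 libraries, against 181 and 175 CPM in vector libraries (log2 0.06, 95% interval -0.01 to 0.14, edgeR adjusted p = 0.213).

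AZIN1 had 531 and 546 CPM in LMO1 libraries, against 453 and 466 CPM in vector libraries, and the groups did not overlap. It rose by 0.24 (SE 0.0286, 95% interval 0.18 to 0.29, edgeR adjusted p = 4.13e-09), a fold of 1.18. AZIN1 overlaps the antisense gene AZIN1-AS1, and with no strand setting stated the reads of the pair cannot be told apart. The antizymes gave values close to 0. OAZ1 had 629 and 643 CPM in LMO1 libraries, against 638 and 625 CPM in vector libraries, and the 95% interval of its log2 difference ran from -0.04 to 0.07. OAZ2 had 31.4 and 39.4 CPM in LMO1 libraries, against 33.2 and 36.8 CPM in vector libraries, with an interval from -0.14 to 0.20. Its direction turned with a replicate left out, between -0.15 without LMO1 replicate 2 and 0.18 without LMO1 replicate 1.

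The turnover genes were low and their intervals wide. SAT1 had 8.38 and 8.89 CPM in LMO1 libraries, against 9.94 and 7.57 CPM in vector libraries, and the groups overlapped (log2 -0.01, 95% interval -0.32 to 0.31, edgeR adjusted p = 0.984). SMOX had 7.38 and 7.31 CPM in LMO1 libraries, against 7.56 and 5.88 CPM in vector libraries (log2 0.14, interval -0.20 to 0.48, edgeR adjusted p = 0.581). PAOX had 30 and 45 counts in LMO1 libraries, against 36 and 46 counts in vector libraries, with an interval from -0.64 to 0.70. These intervals all include 0 and hold differences in both directions. With 2 libraries per group and counts this low, such differences can be neither shown nor excluded. Signs of SAT1, PAOX and SMOX turned with single replicates left out, as given in the closing section.

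**Figure D2:**
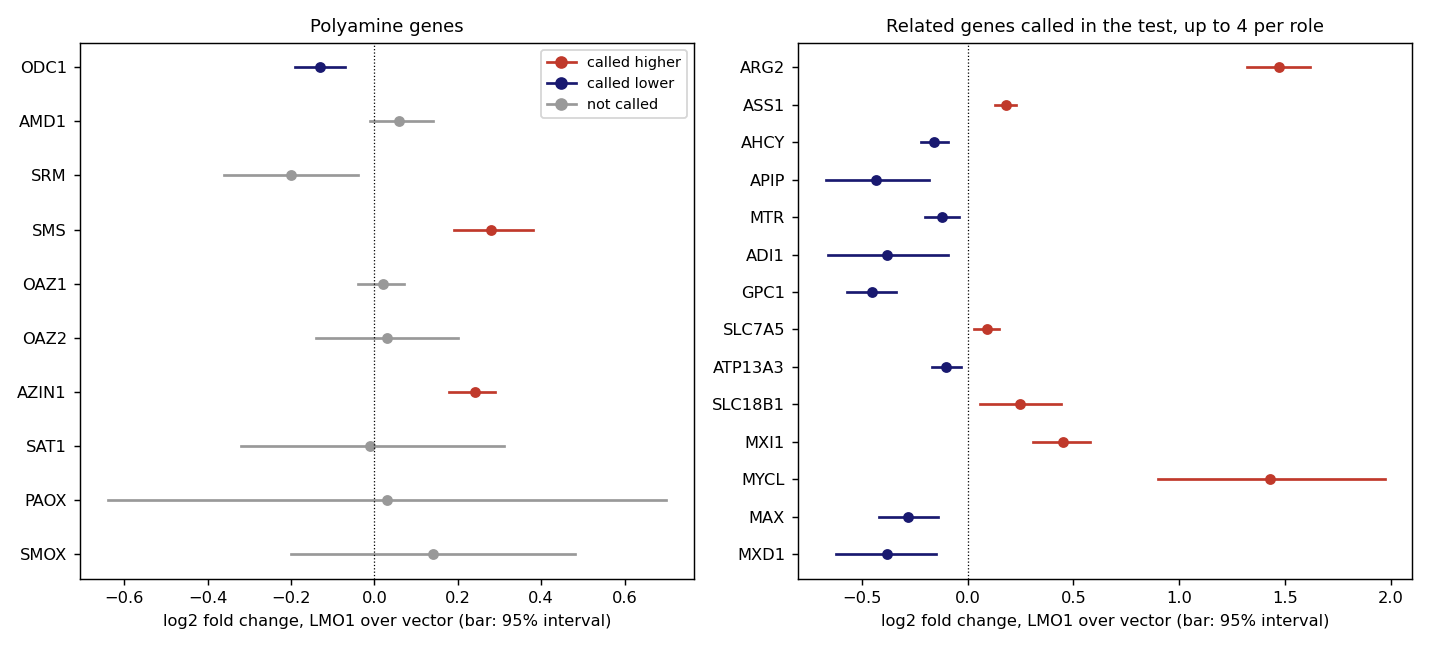
Log2 fold change, LMO1 over vector, with its 95% interval (horizontal axis), for the 10 polyamine genes (left) and the related genes called, up to 4 per role (right, wider axis). SMS (0.28) and AZIN1 (0.24) lie above 0 and ODC1 (-0.13) below 0, while ARG2 (1.47) and MYCL (1.43) lie farthest out on the right.

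Libraries of the LMO1 and vector groups did not overlap for 4 of the 10 genes (ODC1, SRM, SMS and AZIN1), against 63.7% of all genes tested. The median absolute log2 fold change of all called genes was 0.33, and each of the 3 called polyamine genes lay under it. With parental BE2C added to the vector libraries as the control, no member was called by edgeR, with 2 at an unadjusted p under 0.05. The log2 fold change of SMS was then 0.34 and that of AZIN1 0.21, close to their values against vector alone, while that of ODC1 was -0.0014 (edgeR adjusted p 0.493, 0.563 and 0.999). LMO1 itself was not called there either (edgeR adjusted p = 0.276), and 0 of 15731 genes were, with 1381 at an unadjusted p under 0.05 and no other tool run on it. The DESeq2 and limma-voom fits of the LMO1 and vector libraries called the same counts of members, 2 higher and 1 lower.

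Ratios within a library do not depend on how libraries are scaled. Kelly and parental still differ from the LMO1 and vector libraries in histone and small RNA content. Whether that content alters the ratios was not tested. ODC1 over OAZ1, per kb, was 0.282 and 0.286 in LMO1 libraries, 0.689 in Kelly, 0.351 in parental and 0.310 and 0.319 in vector libraries. ODC1 over AZIN1, per kb, was 1.37 and 1.39 in LMO1 libraries, 4.43 in Kelly, 1.26 in parental and 1.80 and 1.76 in vector libraries. LMO1 libraries thus lay below vector libraries in both ratios without overlap, and Kelly above all BE2C libraries. SMS over SRM, per kb, was 2.85 and 2.80 in LMO1 libraries, 2.44 in Kelly, 1.31 in parental and 2.11 and 1.95 in vector libraries. AZIN1 over OAZ1, per kb, was 0.205 and 0.206 in LMO1 libraries, 0.156 in Kelly, 0.280 in parental and 0.173 and 0.181 in vector libraries. AMD1 over ODC1, per kb, was 0.359 and 0.328 in LMO1 libraries, 0.200 in Kelly, 0.429 in parental and 0.306 and 0.293 in vector libraries. In these 3 ratios LMO1 libraries lay above vector libraries. In all ratios given so far, parental lay outside the range of the other BE2C libraries. It lay above them in ODC1 over OAZ1 (0.351). In ODC1 over AZIN1 (1.26) it lay below them, on the far side of the LMO1 libraries from the vector libraries. OAZ2 over OAZ1 overlapped between LMO1 (0.0296 and 0.0364) and vector libraries (0.0309 and 0.0350), and was 0.106 in Kelly and 0.0978 in parental. SMOX over PAOX (3.91 and 3.07 in LMO1, 3.81 and 2.64 in vector libraries) and SAT1 over ODC1 (0.0510 and 0.0521 in LMO1, 0.0541 and 0.0409 in vector libraries) overlapped too. With ODC1 over the antizymes summed, 6 of 9 ratios computed did not overlap, against 61.6% of the ratios of all pairs of tested genes, so the share is near the background. The ratios were not tested.

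**Figure D3:**
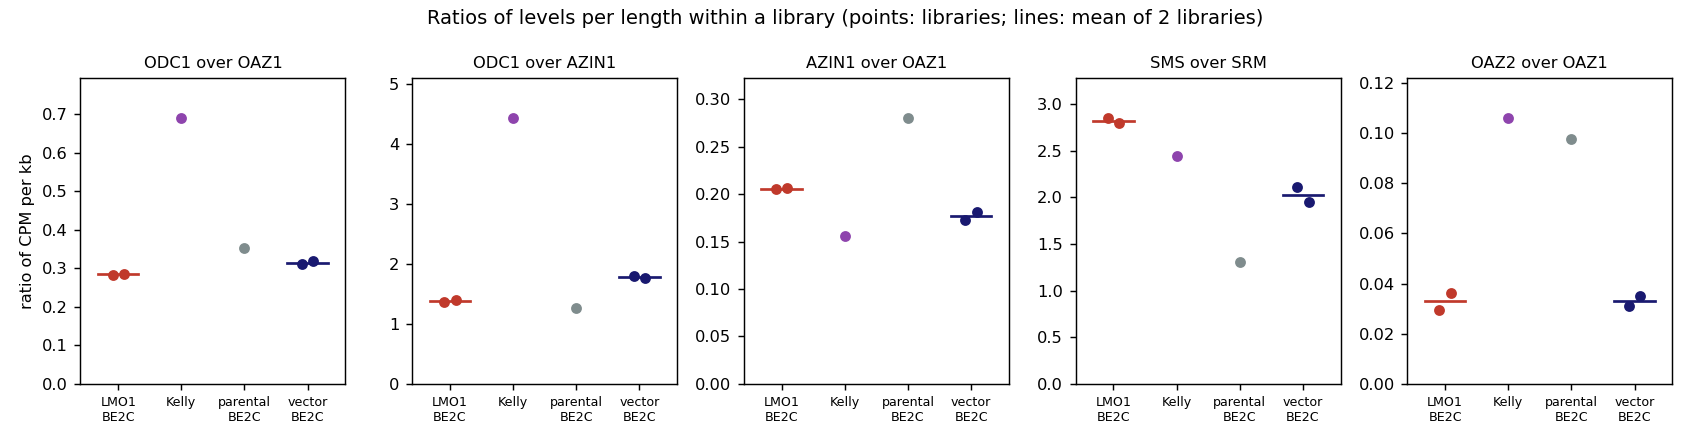
Ratio of CPM per kb of 2 genes within a library (vertical axes, from 0, 1 panel per ratio), with 1 point per library and a line at the mean of 2 libraries. Kelly has the highest ODC1 over AZIN1, at 4.43, and LMO1 libraries (2.85 and 2.80) lie above vector libraries (2.11 and 1.95) in SMS over SRM.

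Kelly cells were set against parental BE2C, whose library had a like histone and small RNA content. With 1 library on each side there was no test, and intervals cover counting error only. SMS passed 2-fold, higher in Kelly, as the only one of the 9 polyamine genes that reached 5 CPM in either library. Of all 12387 such genes 28.7% passed 2-fold, 15.3% higher and 13.4% lower. At 1.5-fold the count was 3 of 9 (ODC1 and SMS higher, AZIN1 lower), against 50.0% of all genes, 25.5% higher and 24.5% lower. The median log2 ratio of the 9 was 0.06, beside -0.03 over all genes.

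SMS stood at 199 CPM in Kelly (95% interval 195 to 203) and 96.5 CPM in parental (93.7 to 99.3), a ratio of 2.06 (1.99 to 2.13), so its interval reaches just under 2-fold. ODC1 stood at 649 CPM in Kelly (642 to 655) and 344 CPM in parental (339 to 349.6), a ratio of 1.88. AZIN1 went the other way, with 260.5 CPM in Kelly (256 to 265) and 488 CPM in parental (482 to 494), a ratio of 0.534. SAT1 had 4.23 CPM in Kelly (3.72 to 4.79) and 6.59 CPM in parental (5.89 to 7.36), a plain ratio of 0.641 that passes 1.5-fold only without the added 1 CPM. The antizymes were near equal, with OAZ1 at 407 and OAZ2 at 72.6 CPM in Kelly, against 424 and 69.9 CPM in parental. AMD1 had 168 CPM in Kelly and 191 in parental, SRM 56.2 CPM in Kelly and 50.9 in parental, and SMOX 8.58 CPM in Kelly and 6.84 in parental. In Kelly 5 of the 9 genes lay above the range of all 5 BE2C libraries, against 40.7% of all genes, and 4 lay below it, against 37.3%. All 9 were thus outside that range, against 78.0% of all genes. MYCN had 2066 CPM in Kelly and 1612 CPM in parental, a ratio of 1.28.

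With the vector mean in place of parental, OAZ2 (log2 1.03) passed 2-fold and SMS (0.88) did not, against 36.9% of 12495 genes past 2-fold and 21.7% past it in the higher direction. At 1.5-fold 6 of 9 genes passed, against 58.1% of all genes. The log2 ratio of OAZ1 was then -0.63, that of SRM 0.60 and that of SAT1 -0.90. SAT1, at 4.23 CPM in Kelly against 9.94 and 7.57 CPM in vector libraries, had a plain ratio of 0.483 (0.411 to 0.567), so that it stayed within 2-fold only with the added 1 CPM. ODC1 was then higher in Kelly by 0.50 and AZIN1 lower by a log2 value of -0.82, the same directions as against parental. Kelly and vector libraries differ in histone and small RNA content, and library content and cell line cannot be told apart here. Parental over vector went the same way for OAZ2 (0.98), OAZ1 (-0.57), SRM (0.46), SAT1 (-0.36) and SMOX (0.02). It went the other way for ODC1 (-0.41), SMS (-0.16), AZIN1 (0.09) and AMD1 (0.10).

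The unmodified line was also compared with the mean of the vector libraries, again without a test. None of the 9 genes passed 2-fold, against 11.4% of 11727 genes (8.79% higher, 2.58% lower), and 1 (OAZ2, higher) passed 1.5-fold, against 26.9% (19.0% higher). OAZ2 had 69.9 CPM in parental, against 33.2 and 36.8 CPM in vector libraries, a log2 ratio of 0.98 with 1 CPM added, and the 95% interval of the plain ratio was 1.88 to 2.12. OAZ1 had 424 CPM in parental, against 638 and 625 CPM in vector libraries, a log2 ratio of -0.57. ODC1 had 344 CPM in parental, against 458 and 461 CPM in vector libraries (log2 -0.41), and SRM 50.9 CPM in parental, against 34.2 and 39.2 CPM (log2 0.46). For ODC1, SMS, OAZ1 and SAT1 the parental library lay below all 4 modified libraries, and for AMD1, SRM and OAZ2 above them, in all 7 of 9 genes, against 77.1% of all genes. These differences come with the histone and small RNA shares given above, and library content and cell state cannot be told apart in them.

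**Figure D4:**
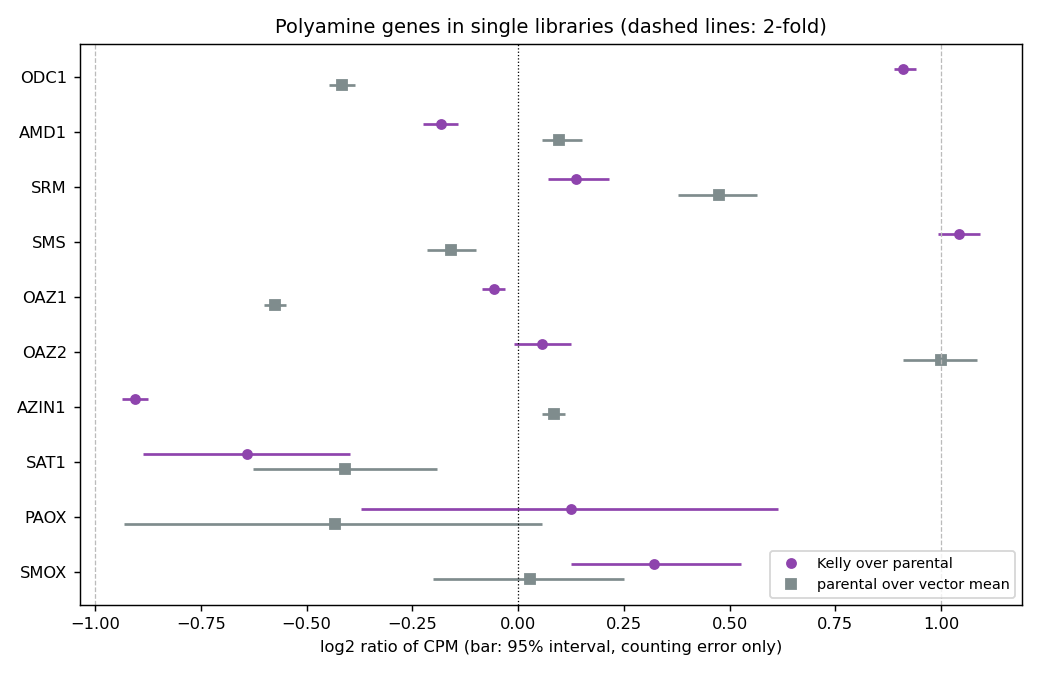
Log2 ratio of CPM, here with no CPM added, Kelly over parental (circles) and parental over the vector mean (squares), with 95% counting intervals (horizontal axis) for each polyamine gene, and dashed lines at 2-fold. In Kelly over parental SMS and ODC1 lie far to the right and AZIN1 far to the left, and OAZ1 and OAZ2 depart from 0 mainly in parental over vector.

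A list of 49 related genes was read beside the 10. It covered arginine and ornithine supply, the methionine cycle, hypusine, transport, the MYC family with its partners, and other antizyme or acetyltransferase genes. In LMO1 against vector 6 were higher and 9 lower of 43 tested, which is 34.9%, beside 31.0% of all genes. Their median log2 fold change was 0.01. Arginine and ornithine supply had 2 higher and 0 lower of 7, a share of 28.6%. ARG2, the mitochondrial arginase that releases ornithine, had 62.0 and 63.5 CPM in LMO1 libraries, against 23.5 and 22.2 CPM in vector libraries. It rose by 1.47 (SE 0.0748, edgeR adjusted p = 2.31e-21), and it also had 92.3 CPM in Kelly and 43.3 CPM in parental. ASS1, which makes argininosuccinate, rose by 0.18 (SE 0.0248, edgeR adjusted p = 7.92e-08).

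In the methionine cycle and salvage 0 were higher and 4 lower of 10, beside 15.9% higher and 15.1% lower over all genes. AHCY, which clears S-adenosylhomocysteine, fell by 0.16 (SE 0.0325, edgeR adjusted p = 0.000145), and APIP, MTR and ADI1 were also called lower (log2 -0.43, -0.12 and -0.38). Of 10 transport genes 2 were higher and 2 lower, a share of 40.0% beside 31.0% of all genes. GPC1, a heparan sulphate proteoglycan linked to polyamine uptake, had 61.8 and 57.1 CPM in LMO1 libraries, against 82.0 and 81.5 CPM in vector libraries, and fell by 0.45 (SE 0.0578, edgeR adjusted p = 1.34e-08). ATP13A3, a polyamine transporter, was lower (log2 -0.10), and SLC7A5 and SLC18B1 were higher (0.09 and 0.25). None of the 4 hypusine genes (EIF5A, EIF5A2, DHPS and DOHH) was called by edgeR, DESeq2 or limma-voom, with 0 at an unadjusted p under 0.05, and the same held for the 2 tested of the other antizyme and acetyltransferase genes, SAT2 and OAZ3.

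In the list of the MYC family and its partners, which also holds LIN28B, 2 were higher and 3 lower of 10. The shares over all genes were the same 15.9% and 15.1%. MYCL, a MYC paralogue, had 4.71 and 4.93 CPM in LMO1 libraries, against 2.34 and 1.29 CPM in vector libraries, and rose by 1.43 (SE 0.267, edgeR adjusted p = 2.89e-05). MXI1, a MAX-binding repressor, rose by 0.45 (edgeR adjusted p = 4.89e-07), MAX fell by 0.28 (edgeR adjusted p = 0.00118) and MXD1 was lower by a log2 value of -0.38. MYCN had 1636 and 1558 CPM in LMO1 libraries, against 1651 and 1666 CPM in vector libraries (log2 -0.05, edgeR adjusted p = 0.122), and was called lower without LMO1 replicate 1 (log2 -0.08, edgeR adjusted p = 1.04e-05). It was also called with every gene of at least 1 count kept (edgeR adjusted p = 0.0170) and by limma-voom (0.0182). Its log2 fold change was -0.01 without LMO1 replicate 2 (edgeR adjusted p = 0.577) and -0.02 with total-count scaling (0.556). The calls of APIP, MTR, ADI1, SLC7A5, ATP13A3, SLC18B1 and MXD1 were lost without vector replicate 2 (edgeR adjusted p 0.0756 to 0.390). They were also lost without LMO1 replicate 1 for APIP, ATP13A3 and MXD1 (0.0541 to 0.181), without LMO1 replicate 2 for MTR, ADI1, SLC7A5 and SLC18B1 (0.103 to 0.344), and without vector replicate 1 for MTR (0.0692). DESeq2 did not call MTR, ADI1, SLC7A5, ATP13A3, SLC18B1 and MXD1 (adjusted p 0.0662 to 0.180), and total-count scaling in edgeR did not call MTR, ADI1 and ATP13A3 (0.0596 to 0.122). ATP13A3 was also lost with at least 5 CPM in 2 libraries (0.0698), and SLC18B1 with all 6 libraries in the fit (0.0546).

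In Kelly against parental 5 of 37 related genes passed 2-fold higher and 1 lower, which is 16.2%, beside 28.7% of all genes. Besides ARG2 these were the arginine carrier SLC7A1 (554 CPM in Kelly, 254 in parental), SLC18B1 (51.7 CPM in Kelly, 21.4 in parental), MYCL (16.8 CPM in Kelly, 2.43 in parental) and LIN28B, which codes for an RNA-binding protein (257 CPM in Kelly, 55.9 in parental). SLC7A2, a second carrier of cationic amino acids, had 53.1 CPM in Kelly and 521 CPM in parental. Below 2-fold related genes went both ways, and 50.0% of all genes passed 1.5-fold in either direction. OAT, which turns ornithine to other uses, had 58.1 CPM in Kelly and 102 CPM in parental. MAT2A, which makes S-adenosylmethionine, had 342 CPM in Kelly and 625 CPM in parental, against 299.6 and 310.4 CPM in vector libraries. EIF5A, the protein that carries hypusine, had 326 CPM in Kelly and 497 CPM in parental. Higher in Kelly were ASL, of arginine supply (71.1 CPM in Kelly, 44.2 in parental), and MXI1 (120.4 CPM in Kelly, 64.1 in parental). Against the vector mean the parental library passed 2-fold higher in 4 of 36 related genes (MAT2A, SLC7A1, SLC7A2 and MNT) and lower in 0, which is 11.1%, beside 11.4% of all genes.

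Genes with a pattern most like that of ODC1 over the 4 group means, by root mean square distance of centred log2(CPM + 1), were ZNF283, ITGA4, DDB1, NDUFV2 and MRPL37, at 0.028 to 0.032, among 10351 genes averaging 10 CPM or more. Among the polyamine genes at that level, SMS was the nearest, at 0.163 and rank 589, and AZIN1 was at 0.718 and rank 7987. Between them stood SRM (0.378, rank 3442), AMD1 (0.398, rank 3821), OAZ1 (0.499, rank 5485) and OAZ2 (0.540, rank 6086). Kelly and parental entered this pattern as single libraries. In LMO1 against vector, ODC1 and SMS were called in opposite directions (log2 -0.13 and 0.28).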

How the data were processed

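The data were raw read counts per gene symbol for 6 libraries, deposited by the authors in 1 table with no normalization. Per the labels' protocols, total RNA was made into stranded paired-end libraries, and the submitters' processing notes name TopHat2 2.0.6, HTSeq and hg19. The annotation, strand setting and filters are not given in the sources used here. The polyamine genes and all lists were chosen with earlier results of these data known. Named genes were the 10 members, LMO1, MYCN (a related gene), up to 4 called related genes per role by lowest adjusted p (up to 3 by size of ratio, or those past 2-fold, in single libraries) and the 5 genes nearest to ODC1.

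The LMO1 against vector test used edgeR 4.0.16 under R 4.3.3 (TMM, filterByExpr with 15480 genes kept and 9890 removed, quasi-likelihood F test, Benjamini-Hochberg over all genes tested, threshold 0.05). Intervals are 95%, and SE is the fold change over the root of F. CPM are TMM-scaled over all 6 libraries. DESeq2 1.42.0 and limma 3.58.1 served as alternatives. Single-library log2 ratios used CPM + 1 and genes reaching 5 CPM in 1 of the groups, with exact Poisson or binomial intervals for counting error only, since reads carried no molecular identifiers. A count of 0 allows up to 3 counts, 0.0504 to 0.16 CPM. Separate cultures for the libraries of a group are not stated in any label, and p-values then reflect only the spread among these libraries, which may be technical. Chi-square per degree of freedom was 2.84 and 2.70 within the LMO1 and vector pairs, above sampling noise, and 18.5 to 19.9 between groups. Simulated counts for that test (15440 genes tested) gave every gene the same biological variation (3.6%) and changed 200 genes. The test recovered 70 of 78 true 1.5-fold changes, 53 of 54 at 2-fold and 68 of 68 at 4-fold. It made 10 false calls in 15240 unchanged genes. The folds of the called members, 0.913 for ODC1, 1.22 for SMS and 1.18 for AZIN1, were smaller changes than any simulated. Recovery of such changes, and false calls with a spread that differs between genes, were not simulated.

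Lengths and overlaps came from GENCODE v29, a later build than that of the counts. AMD1 has 4 and SRM has 2 named pseudogenes there, none with a row in the table, so the share of reads between copies is uncertain. AZIN1 exons are overlapped on the opposite strand by AZIN1-AS1, and exons of OAZ1 and PAOX on the same strand by AC005258.1 and AL360181.3, which also have no row, so those counts are uncertain to that extent.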

Additional observations from a re-analysis of the deposited data

How the results depend on the processing

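The calls of SMS and AZIN1 (higher) and ODC1 (lower) were kept under RLE size factors, total-count scaling, DESeq2, limma-voom, both other filters, all 6 libraries in the fit and each replicate left out. With vector and parental libraries together as the control the calls were 0 and 0 of all genes, 0 and 0 of the members and 0 and 0 of the related genes (higher and lower), and the log2 fold change of ODC1 was -0.0014, against 0.34 for SMS and 0.21 for AZIN1. OAZ2 was at -0.38, SAT1 at 0.12 and SLC7A5 at -0.30. The cause was not tested. DESeq2 called 1539 genes higher and 1431 lower, and 4 related genes lower. Members called lower were 2, with SRM added, without a low-count filter, and 1 to 2 with a replicate left out. Related genes called lower were 4 to 7, and called higher 4 to 7, with a replicate left out.

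SAT1 turned to 0.02 with total-count scaling and with limma-voom, and to 0.01 with at least 5 CPM in 2 libraries. With a replicate left out the log2 fold changes ran from -0.0017 to 0.03 for OAZ1, -0.15 to 0.18 for OAZ2, -0.20 to 0.20 for SAT1, -0.15 to 0.18 for PAOX and -0.04 to 0.33 for SMOX. With 1.5-fold in place of 2-fold, 3 members passed in Kelly against parental and 1 in parental against the vector mean. Of the log2 ratios of single members, 11 of 60 in Kelly against parental and 8 of 70 in parental against vector moved beyond their counting interval. Most of the 11 came with the vector mean in place of parental, which is another comparison. SMS in Kelly against parental, the only ratio past 2-fold at the main settings, ran from 1.01 to 1.06 with other scalings and added CPM. It was 0.88 against the vector mean.

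With the replicate number as a block, which no label ties to a shared culture or day, 2 members were called higher and 2 lower, with SRM added (edgeR adjusted p = 0.0487), and SAT1 was at 0.0025. Same-numbered deviations had a correlation of -0.0213 over 15480 genes. Depth limits PAOX, SMOX and SAT1, at under 10 CPM in every library.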
